A study of Mus musculus with 6 samples.

Results

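A group of 9 neuron-enriched miRNAs was followed in small RNA libraries of mouse brain cortex. The group was given as a list of names, all of which have a row in a table of 1182 miRNAs, 1140 annotated and 42 predicted. It holds mmu-miR-137-3p, mmu-miR-138-5p, mmu-miR-153-3p, mmu-miR-218-5p, mmu-miR-149-5p, mmu-miR-326-3p, mmu-miR-488-3p, mmu-miR-139-5p and mmu-miR-135a-5p, from here on without the species prefix. The 6 libraries came from untreated adult male mice, 3 of them Fmr1 knockouts (KO) and 3 wild type (WT) by their labels, which the series' design text calls siblings. The product of Fmr1, FMRP, binds messenger RNAs and controls their translation at synapses, and its loss in humans causes fragile X syndrome. The labels give neither strain, exact age nor the form of the knockout allele, and a table of miRNAs holds no Fmr1 transcript with which to check the genotype. Total RNA of whole cortex was used, so each value is a mean over neurons, glia and vessels. Fewer cells of a type and less miRNA per cell cannot be told apart.

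A miRNA is cut from a hairpin precursor, and one of its arms is usually loaded into an Argonaute protein as the guide while the other is degraded. Bases 2 to 8 of the guide, the seed, set most of its pairing to messenger RNAs, which are then repressed. In neurons some guides act locally at synapses. Among the listed miRNAs, miR-138-5p is known for restraining the growth of dendritic spines, miR-137-3p for control of dendrite development and vesicle release, miR-153-3p for repression of vesicle fusion proteins such as Snap25, and miR-135a-5p for repression of complexins and of the serotonin transporter.

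The mature sequences of all 9, from RefSeq on GRCm38.p6, are shown with the seed in capitals because the seed largely decides whether these miRNAs could repress the same messages.
mmu-miR-137-3p: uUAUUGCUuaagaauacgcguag
mmu-miR-138-5p: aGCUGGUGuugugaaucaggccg
mmu-miR-153-3p: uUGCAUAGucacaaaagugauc
mmu-miR-218-5p: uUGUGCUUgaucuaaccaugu
mmu-miR-149-5p: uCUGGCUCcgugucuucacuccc
mmu-miR-326-3p: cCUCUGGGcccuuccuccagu
mmu-miR-488-3p: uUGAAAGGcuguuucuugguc
mmu-miR-139-5p: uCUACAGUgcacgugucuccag
mmu-miR-135a-5p: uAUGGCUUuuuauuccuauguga

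The list holds 9 different seeds, so it is a group by tissue and function and not a seed family. Lengths ran from 21 to 23 bases and GC content from 30.4% in miR-135a-5p to 66.7% in miR-326-3p. A first base of U, the base that Argonaute favours, was present in 7 of 9, the others being miR-138-5p and miR-326-3p. The RefSeq sequences at hand lack mature miR-135b-5p, so a seed that it shares with a listed miRNA would be missed here. Among RefSeq mature sequences, the seed of miR-326-3p is shared with miR-330-5p (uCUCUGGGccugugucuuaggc) and that of miR-218-5p with miR-7002-3p, which has no row in the table.

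These miRNAs come from 12 hairpins. On GRCm38 with the GENCODE M21 annotation, miR-218-5p has 2 copies, in introns of the axon guidance genes Slit2 (chromosome 5, 48223942 to 48224051) and Slit3 (chromosome 11, 35616816 to 35616925). The hairpin of miR-139-5p lies in an intron of Pde2a, a phosphodiesterase gene (chromosome 7, 101475376 to 101475443). That of miR-326-3p is on the same chromosome in an intron of Arrb1, the beta-arrestin 1 gene (99552269 to 99552363). On chromosome 1, miR-149-5p lies in an intron of Gpc1, which encodes a glypican of the cell surface (92850378 to 92850443), and miR-488-3p in an intron of Astn1, which encodes a protein of neuronal migration (158505625 to 158505733). The hairpin of miR-153-3p lies in an intron of Ptprn2, a gene of secretory vesicles (chromosome 12, 117250817 to 117250885). All of these are on the strand of the host gene named. The hairpins of miR-153-3p and miR-488-3p also lie in introns of the antisense genes Gm5441 and Gm37679, on the opposite strand. That of miR-139-5p lies in an intron of Gm45837 too, on the same strand. The remaining miRNAs are tied to noncoding transcripts: miR-137-3p to an exon of Gm26871 (chromosome 3, 118433857 to 118433929), miR-138-5p to exons of the pseudogene Gm47135 (chromosome 9, 122682876 to 122682974) and of C78859 (chromosome 8, 94324311 to 94324381), and miR-135a-5p to introns of D030055H07Rik (chromosome 9, 106154124 to 106154213) and Rmst (chromosome 10, 92072086 to 92072185). The chromosome 9 copy of miR-135a also lies opposite an exon of Glyctk. Copies of miR-218-5p, miR-138-5p and miR-135a-5p give identical mature sequences, so the source of a read cannot be told.

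The libraries held 11182888 to 15733876 miRNA reads, and the 9 listed miRNAs took 1.78% to 2.53% of them. Levels are CPM, counts per 1000000 reads after TMM scaling of the libraries. In KO the spread between libraries was wider than in WT for most miRNAs. The SD of log2 CPM was larger in KO for 83.4% of the 541 miRNAs that passed the filter on low counts, and for 9 of 9 listed ones. All 9 passed that filter. The median SD among them was 0.448 log2 units in KO and 0.119 in WT, beside 0.404 and 0.141 over all tested. KO replicate 3 stood apart. It was the highest of the 6 libraries for 29.4% and the lowest for 38.4% of tested miRNAs, so the fold changes of the listed miRNAs and the counts of the other lists are given with and without it.

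The 9 miRNAs spanned a 781-fold range in WT cortex. The most abundant, miR-218-5p, ranked 16 among the tested miRNAs, at 12114, 13055 and 12070 CPM in WT replicates 1, 2 and 3. Next came miR-139-5p at rank 28, with 5346, 5404 and 5302 CPM. A 12.25-fold step led down to miR-149-5p, with 453, 418 and 439 CPM, and then to miR-138-5p with 208, 247 and 230 CPM. The levels of miR-488-3p, 131.6 ± 6.41 CPM, and of miR-135a-5p, 127.4 ± 10.9 CPM, were the only neighbours in this order whose WT libraries overlapped (SD, n = 3 each). Below them followed miR-153-3p at 61.4 ± 6.36 CPM, miR-137-3p at 45.1 ± 3.7 CPM and miR-326-3p at 15.9 ± 1.91 CPM (SD, n = 3 each). The order was the same when each WT mean was divided by the length of the mature miRNA, but lengths of 21 to 23 bases are too alike to change it. Ligation and amplification can favour some sequences, so the order describes reads and not molecules.

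**Figure D1:**
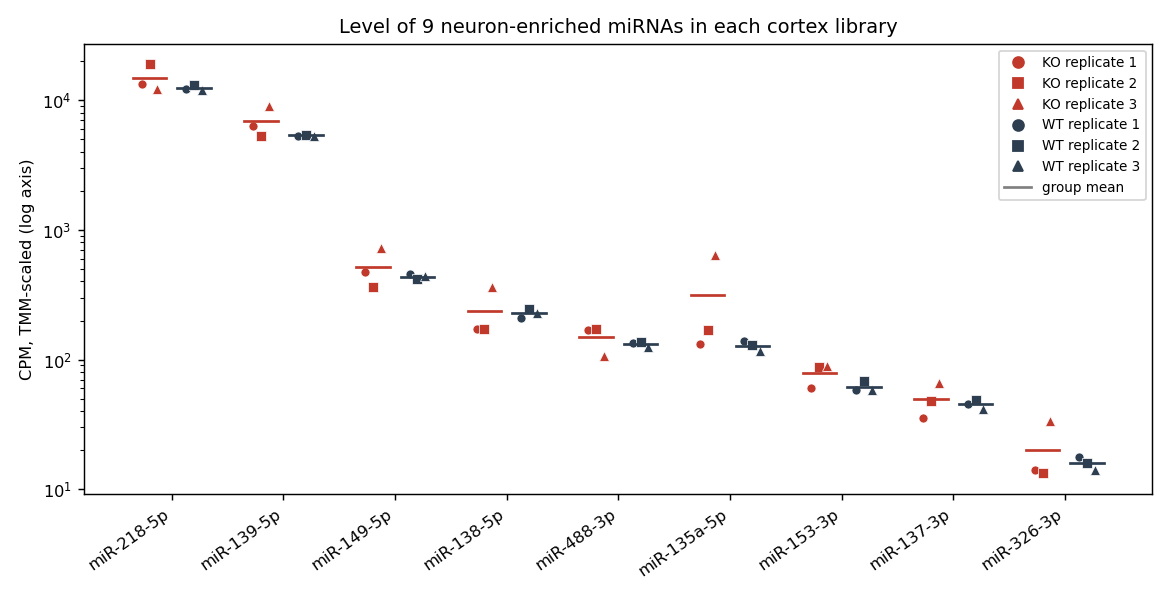
CPM on a log axis for each of the 9 miRNAs, in order of WT level, with one symbol per library and a line at each group mean. The WT libraries lie close together at every miRNA, while KO replicate 3 (red triangle) stands highest for 7 of 9, most clearly for miR-135a-5p at 644 CPM.

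No listed miRNA differed between the genotypes after adjustment over 541 miRNAs (0 of 9 under 0.05 in the edgeR quasi-likelihood test), and neither did any other tested miRNA (0.0% called). None of the 9 had an unadjusted p under 0.05 either, a level reached by 6.47% of all tested. DESeq2 and limma-voom likewise gave 0 calls over all miRNAs. Estimates were above 0 for 9 of 9, beside 52.5% of all tested miRNAs, with a median log2 fold change of 0.259 against 0.027 over all tested. That count was 8 with limma-voom, with limma on log2(TPM + 1) and with WT replicate 1 left out. It moved most when KO replicate 3 was left out. Without KO replicate 3, estimates were above 0 for 5 and below 0 for 4, with a median of 0.136 beside 0.023 over all tested. KO and WT libraries did not overlap for 0 of 9, beside 15.7% of all tested.

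KO replicate 3 was the highest of the 6 libraries for 7 of 9 listed miRNAs, beside 29.4% of all tested, and the lowest for miR-488-3p. It was at least 2-fold above the mean of KO replicates 1 and 2, on the log2 CPM scale, for miR-135a-5p, miR-326-3p and miR-138-5p, which is 3 of 9 beside 13.9% of all tested. The median difference between KO replicate 3 and the other KO libraries was 0.687 log2 units for the listed miRNAs and -0.085 over all tested. Listed miRNAs of 23 bases differed there by 0.687 to 2.11 log2 units and those of 21 bases by -0.673 to 1.28, beside medians of 0.029 and -0.199 over 81 and 86 tested miRNAs of these lengths. These values describe 1 library and carry no test.

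**Figure D2:**
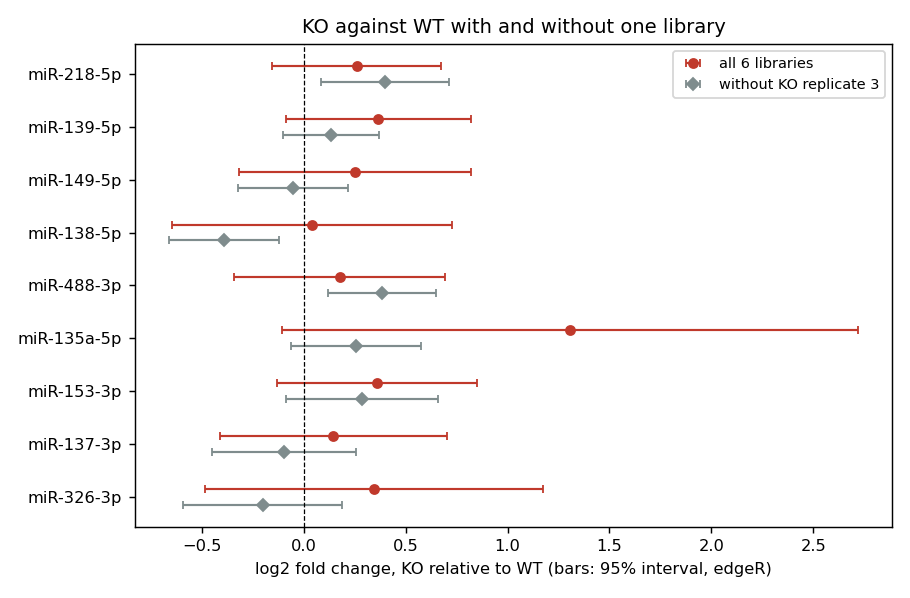
Log2 fold change of KO relative to WT for each miRNA, with 95% intervals from edgeR, for all 6 libraries (red circles) and without KO replicate 3 (grey diamonds). Every interval from 6 libraries includes 0, and the estimate for miR-135a-5p moves from 1.31 to 0.26 when the library is left out.

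The largest estimate belonged to miR-135a-5p, a repressor of complexin and serotonin transporter messages. Its levels were 131, 169 and 644 CPM in KO replicates 1, 2 and 3, and 138, 128 and 116 CPM in WT replicates 1, 2 and 3. KO replicate 1 lay within the WT range, KO replicate 2 slightly above it, and KO replicate 3 at 5.06 times the WT mean. The log2 fold change of 1.31 (SE 0.59, 95% interval -0.108 to 2.719) had an adjusted p of 0.749 (edgeR, n = 3 each). Without KO replicate 3 it was 0.26 (SE 0.15, edgeR adjusted p = 0.391).

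Among vesicle and dendrite regulators, miR-153-3p stood at 60.7, 87.0 and 88.8 CPM in the KO libraries and at 57.8, 68.8 and 57.7 CPM in the WT libraries. KO replicate 1 fell inside the WT range and the other KO libraries above it. Its log2 fold change was 0.36 (SE 0.21, edgeR adjusted p = 0.749) and, at 0.29, little different without KO replicate 3. Levels of miR-137-3p were 35.6, 47.6 and 66.4 CPM in KO, against 45.6, 48.5 and 41.2 CPM in WT. The KO libraries thus lay below, within and above the WT range. The estimate was 0.15 (SE 0.24, adjusted p = 0.882) and changed sign to -0.10 without KO replicate 3.

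The spine regulator miR-138-5p had 171, 174 and 361 CPM in KO, against 208, 247 and 230 CPM in WT. KO replicates 1 and 2 were both below every WT library and KO replicate 3 above every one. The estimate over 6 libraries was 0.04 (SE 0.30, edgeR adjusted p = 0.97). Without KO replicate 3 it was -0.39 (SE 0.13, 95% interval -0.659 to -0.119), with an unadjusted p of 0.00821 and an adjusted p of 0.109.

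The 2 listed miRNAs that were not highest in KO replicate 3 were miR-218-5p and miR-488-3p. Levels of miR-218-5p were 13378, 18905 and 12290 CPM in the KO libraries, with KO replicate 2 at 1.52 times the WT mean and KO replicate 3 within the WT range. Its log2 fold change was 0.26 (SE 0.18, edgeR adjusted p = 0.769), and 0.40 (SE 0.15, adjusted p = 0.161) without KO replicate 3. Without KO replicate 2 it was 0.0042 (edgeR adjusted p = 0.993). For miR-488-3p, KO replicates 1 and 2 at 168 and 172 CPM exceeded the WT libraries at 134, 136 and 124 CPM, and KO replicate 3 at 107 CPM was the lowest. The estimate of 0.18 (SE 0.23, adjusted p = 0.86) became 0.38 (SE 0.12, 95% interval 0.12 to 0.649, unadjusted p = 0.00769, adjusted p = 0.105) with that library left out. Leaving out KO replicate 2 instead gave 0.005 (edgeR adjusted p = 0.994). Without KO replicate 3, unadjusted p was under 0.05 for 3 of 9, namely miR-138-5p, miR-218-5p and miR-488-3p, beside 17.3% of 560 tested. At an adjusted p under 0.05 there were 0 of 9, beside 3.21% of all tested. With the scaling also refitted without KO replicate 3, groups did not overlap for 4 of 9, these 3 and miR-139-5p, beside 34.1% of all tested. For miR-139-5p this rested on the new scaling, which put KO replicate 2 at 5367.5 CPM and WT replicate 2, the highest WT library, at 5297.3 CPM.

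The remaining miRNAs, from introns of Pde2a, Gpc1 and Arrb1, were well above WT in KO replicate 3 and nearer to WT in the other KO libraries. In KO, miR-139-5p had 6307, 5334 and 9038 CPM, the last at 1.69 times a WT mean of 5351 ± 51 CPM (SD, n = 3). The WT spread of 0.95% (SD as a percent of the mean) was the narrowest of the 9, and its log2 fold change was 0.37 (SE 0.20, edgeR adjusted p = 0.749). For miR-149-5p the KO libraries held 471, 365 and 725 CPM, one above, one below and one far above the WT range, with an estimate of 0.25 (SE 0.25, adjusted p = 0.813). The least abundant, miR-326-3p, had 14.1, 13.2 and 33.3 CPM in KO, against 17.8, 15.8 and 14.0 CPM in WT. Its estimate was 0.35 (SE 0.36, adjusted p = 0.818). Without KO replicate 3 the estimates for these 3 miRNAs were 0.14, -0.05 and -0.20. The seed-sharing miR-330-5p, far more abundant, went the other way in that library: 2271, 2138 and 1458 CPM in KO, against 1709, 1584 and 1643 CPM in WT.

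The share of reads from each arm is a ratio within 1 library, so it does not depend on library scaling. For miR-138-5p, miR-218-5p and miR-135a-5p it pools the arms of 2 hairpins. The listed arm was the more abundant one at all 9 miRNAs. It took 82.2% ± 2.39 of both arms' reads for miR-153-3p, 93.8% ± 0.237 for miR-137-3p and 93.9% ± 0.2 for miR-135a-5p in WT (SD, n = 3 each). For miR-218-5p it took nearly all, with 51 reads of the other arms among 1115576 over 6 libraries. For miR-326-3p the other arm had 2, 0 and 1 reads in the KO libraries and 0 in each WT library, where 3 reads would be 0.197 to 0.221 CPM.

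Shown with both mature arms in capitals, the 5p arm first, are the hairpins of miR-153-3p, miR-135a-5p and miR-139-5p, whose listed-arm share in KO replicate 3 had a 95% Wilson interval above those of the other 5 libraries. The opposite arms of 1 hairpin pair with each other in the stem but carry different seeds.
Mir153: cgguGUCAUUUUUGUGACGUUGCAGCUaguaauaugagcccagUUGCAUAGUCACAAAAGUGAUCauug
Mir135a-1: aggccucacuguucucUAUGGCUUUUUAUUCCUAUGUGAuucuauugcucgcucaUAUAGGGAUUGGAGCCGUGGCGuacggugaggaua
Mir135a-2: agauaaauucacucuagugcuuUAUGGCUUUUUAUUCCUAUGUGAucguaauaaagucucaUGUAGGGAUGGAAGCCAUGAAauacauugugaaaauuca
Mir139: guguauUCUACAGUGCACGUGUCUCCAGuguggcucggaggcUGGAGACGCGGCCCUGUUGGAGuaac

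In KO replicate 3 the arms of these hairpins went apart. The share of miR-153-3p was 80.7%, 81.4% and 94.9% in KO replicates 1, 2 and 3 and 79.5%, 84.0% and 83.0% in WT. The 95% Wilson interval of KO replicate 3, 93.5% to 96.0%, lies above those of the other 5 libraries. While the 3p arm was high there, miR-153-5p had 4.78 CPM against 14.5 and 19.9 CPM in the other KO libraries and 14.9, 13.1 and 11.8 CPM in WT. For miR-135a-5p the share was 91.9%, 95.8% and 98.9% in KO and 93.6%, 94.0% and 94.0% in WT. Its other arms did not follow the high level of the 5p arm in KO replicate 3. There miR-135a-1-3p had 1.90 CPM, inside the WT range of 1.18 to 2.16 CPM, and miR-135a-2-3p 5.19 CPM, below each WT library. The share of miR-139-5p was 97.6%, 98.4% and 99.0% in KO and 97.8%, 97.7% and 97.7% in WT. The level of miR-139-3p was 154, 84.8 and 90.5 CPM in KO, against 122, 127 and 127 CPM in WT, so that KO replicates 2 and 3 were both below the WT libraries.

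**Figure D3:**
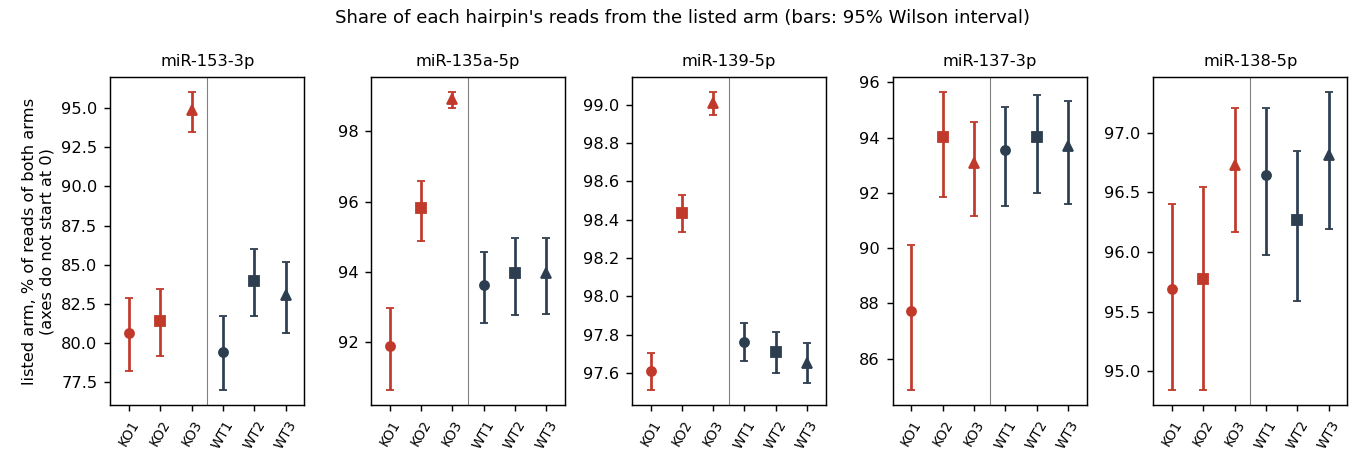
Reads of the listed arm as a percent of reads of both arms, by library, for 5 hairpins, with 95% Wilson intervals that cover counting error alone and axes that do not start at 0. KO replicate 3 stands above the other libraries for miR-153-3p (94.9%), miR-135a-5p (98.9%) and miR-139-5p (99.0%), and KO replicate 1 below them for miR-137-3p (87.7%).

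The arms of the miR-138 hairpins did not all have the same pattern. Both miR-138-5p and miR-138-1-3p were highest in KO replicate 3, the latter at 9.23 CPM beside 4.57 and 4.21 CPM in KO replicates 1 and 2. The other 3p arm, miR-138-2-3p, had 3.14, 3.45 and 2.97 CPM in KO, against 2.29, 2.21 and 4.01 CPM in WT, and was not high in KO replicate 3. The share of miR-138-5p there, 96.7%, lay inside the WT range of 96.3% to 96.8%. The share of miR-137-3p was 87.7% in KO replicate 1, beside 93.1% to 94.0% in the other 5 libraries, with miR-137-5p at 4.98 CPM and miR-137-3p at its lowest. KO replicate 3 had the highest share for 4 of 9 hairpins, beside 18.6% of 242 hairpins with at least 100 reads.

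**Figure D4:**
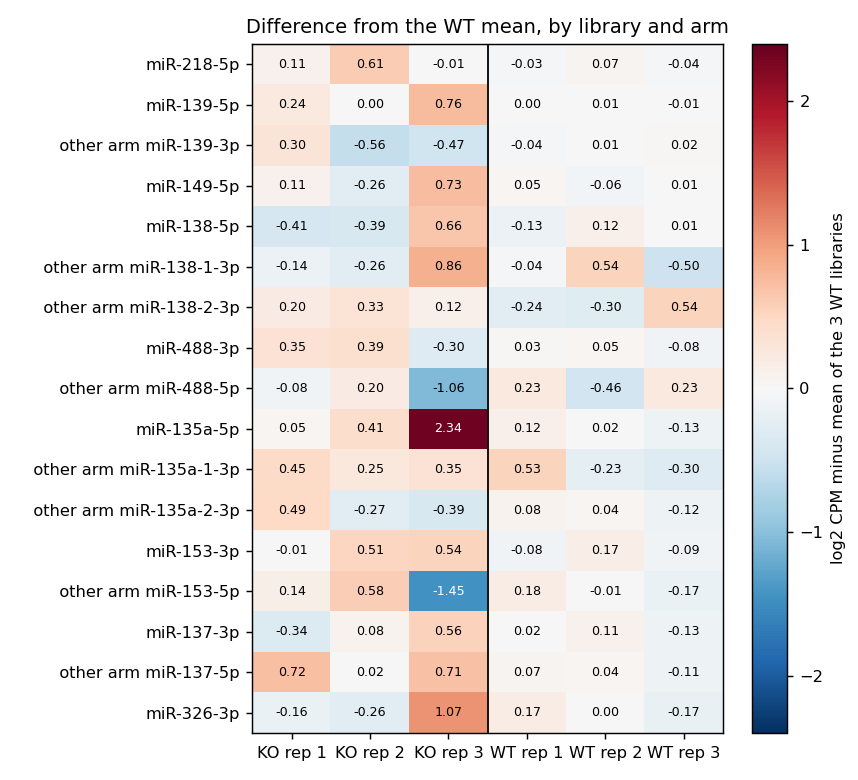
Log2 CPM minus the mean of the 3 WT libraries for each listed miRNA and, under it, each other arm that passed the count filter; red is above and blue below WT, and the vertical line separates KO from WT. In KO replicate 3, miR-135a-5p is 2.34 above the WT mean and miR-153-5p is far below while miR-153-3p is above.

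With 3 libraries against 3, the exact two-sided permutation test of an arm share cannot give a p below 0.1, so no share could pass 0.05 and the test does not show whether shares differ between genotypes. Adjusted over 9 tests, p was at least 0.6. The groups did not overlap for miR-149-5p alone, 1 of 9 beside 12.8% of 242 hairpins. Its share was 99.855% to 99.887% in KO and 99.942% to 99.955% in WT, and rested on 35 reads of miR-149-3p, 10, 5 and 10 in KO and 4, 3 and 3 in WT (exact permutation p = 0.1). The share of miR-153-3p differed by 3.49 percentage points (exact permutation p = 0.8), and that of miR-135a-5p by 1.68 (exact permutation p = 0.5). With KO replicate 3 left out, these differences were -1.12 and -0.0112 percentage points. Of the 12 other-arm rows, 8 passed the count filter, and 0 were called with or without KO replicate 3 (edgeR).

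Profiles over the 6 libraries were compared by the root mean square difference of log2 CPM after each was centred on its own mean. Within the list, miR-139-5p and miR-149-5p were most alike (0.103), followed by miR-218-5p with miR-488-3p (0.176). Outside it, the nearest to miR-153-3p was miR-101a-3p (0.056), with 3229, 4147 and 4658 CPM in KO, against 3067, 3661 and 2956 CPM in WT. The nearest to miR-137-3p were miR-126b-3p (0.077), miR-34c-5p (0.078) and miR-126a-5p (0.078). The rows of miR-126b-3p and miR-126a-5p held nearly the same counts, with equal levels in KO replicate 3 and in WT, so they are not separate neighbours. The nearest to miR-218-5p was miR-3068-5p (0.083). For miR-488-3p it was miR-330-5p (0.08), the seed partner of miR-326-3p. Nearest to miR-138-5p were miR-380-3p (0.096) and the neuronal miR-212-3p (0.116), to miR-149-5p miR-150-5p (0.095) and to miR-139-5p miR-148a-5p (0.088). For miR-326-3p a predicted miRNA (0.106) and miR-664-3p (0.115) were nearest.

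The profile of miR-135a-5p had the widest spread of the 9 (SD 0.935 log2 units, the others 0.248 to 0.496). Nearest to it were miR-350-3p (0.163), miR-1298-5p (0.206) and miR-448-3p (0.247). Levels of miR-1298-5p were 898, 1443 and 4247 CPM in KO, against 858, 810 and 1035 CPM in WT, with the KO libraries in the order of miR-135a-5p. The related miR-135b-5p, singled out after its values were seen, had 54.7, 81.3 and 155 CPM in KO, against 68.8, 68.3 and 70.3 CPM in WT. Reads of miR-135a-5p and miR-135b-5p could be shared in part. The 2 rows kept different ratios across libraries, so they are not the same counts, but partial sharing was not tested. Markers of choroid plexus and multiciliated cells were also high in KO replicate 3. Their summed level was 1022, 1037 and 2119 CPM in KO and 973 to 1047 CPM in WT, and none of 8 was at 0 in any library. Of the tested markers, 6 of 6 had higher estimates in KO, beside 52.5% of all tested miRNAs. The same 6 were highest in KO replicate 3, beside 29.4% of all tested. Estimates were higher in KO for 6 of 6 without that library too, with a median log2 fold change of 0.276 in place of 0.515. The part of these cells in the level of miR-135a-5p was not tested.

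**Figure D5:**
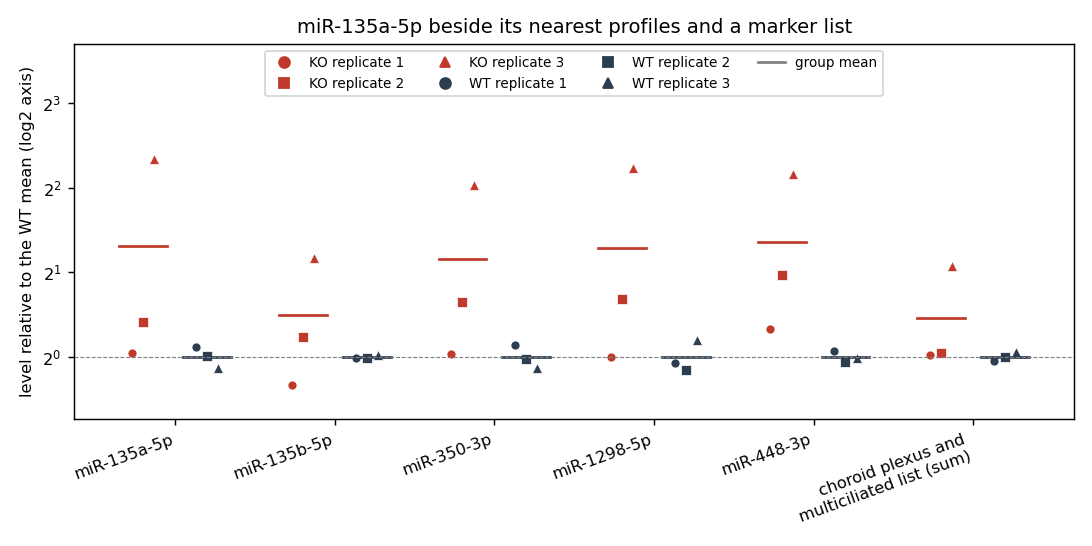
Level relative to the WT mean, on a log2 axis, for miR-135a-5p, miR-135b-5p, the nearest 3 profiles and the summed choroid plexus and multiciliated markers, with one symbol per library and a line at each group mean. KO replicate 3 (red triangle) is highest in every column, at 5.06 times the WT mean for miR-135a-5p, and KO replicate 2 is second among KO libraries.

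Other neuron-enriched miRNAs, a list of 20 chosen beside the 9, divided by direction. Of these, 12 had higher and 8 lower estimates in KO, beside 52.5% of all tested miRNAs above 0. The median log2 fold change was 0.14, and 0 were called (edgeR). With KO replicate 3 left out, 8 were higher and 12 lower, with a median of -0.036. Then 1 of 20 was called, miR-344d-3p (log2 fold change 0.57, edgeR adjusted p = 0.0227), beside 3.21% of 560 tested. KO replicate 3 was highest for 9 of 20 and lowest for 5 of 20, beside 29.4% and 38.4% of all tested. Their summed level, most of it miR-9-5p and miR-128-3p, was 310300, 448300 and 347400 CPM in KO and 338600 to 370200 CPM in WT.

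The cortex label was checked against markers of other cells. Oligodendrocyte markers summed to 632 to 874 CPM in KO and 857 to 974 CPM in WT, lowest in KO replicate 3, with 1 of 4 estimates higher and 3 lower. Microglial and leukocyte markers summed to 194 to 218 CPM in KO and 170 to 180 CPM in WT (4 of 4 tested higher), and endothelial and mural markers to 38480 to 44550 CPM and 35220 to 42570 CPM (4 of 4 higher). Erythroid markers, a sign of blood in the tissue, summed to 80.3 to 121 CPM in KO and 75.4 to 83.4 CPM in WT (3 of 4 higher). Hox-cluster miRNAs of hindbrain and spinal cord summed to 54.7 to 101 CPM in KO and 67.6 to 75.1 CPM in WT (2 of 2 tested higher). Of these, miR-196a-5p and miR-196b-5p were at 0 in at least 1 library. Epithelial and olfactory miRNAs varied most, at 15.7, 904 and 970 CPM in KO replicates 1, 2 and 3 and 83.9 to 290.0 CPM in WT (5 of 5 higher), with miR-141-3p at 0 in at least 1 library. KO replicate 1 was below each WT library, and KO replicates 2 and 3 above each. The KO libraries had this rising order for miR-135a-5p, miR-137-3p, miR-138-5p and miR-153-3p too, and another order for the remaining listed miRNAs. How many of all tested miRNAs had this order was not counted, and the place of the KO libraries beside WT differed. For miR-135a-5p and miR-153-3p, KO replicate 1 lay within the WT range. For miR-137-3p, KO replicate 2 lay within it. For miR-138-5p, KO replicates 1 and 2, at 171 and 174 CPM, were nearly equal and both below each WT library. In the 5 libraries without KO replicate 3, estimates were higher for 0 of 4 oligodendrocyte, 3 of 4 microglial and leukocyte, and 3 of 4 endothelial and mural markers. They were higher for 3 of 4 erythroid, 2 of 2 hindbrain and spinal cord, and 5 of 5 epithelial and olfactory markers. No marker in these lists was called from 6 libraries (edgeR). Without KO replicate 3, 1 was called, miR-146a-5p (log2 fold change 0.60, edgeR adjusted p = 0.0383), beside 3.21% of 560 tested. The part of these cells in the levels of the 9 miRNAs was not tested.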

How the data were processed

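Per the labels' protocols, small RNA libraries were made from cortical total RNA by adaptor ligation, PCR and gel size selection, with single-end sequencing. The submitters' processing notes name Bowtie, DESeq2 and the build mm10. The sources used here do not state the miRBase release, the mismatches allowed, or how strand and multiply matching reads were handled. The authors deposited whole-number read counts per mature miRNA and, per the file headers, TPM values, which equal the counts as a share of the column total, scaled to 1000000, without a length term. Each column was matched to the sample title with the same number. Replicate numbers follow accession order and pair nothing, and no source ties a library to a separate animal, so p-values measure the spread between these libraries. No batch is given.

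Counts were analysed with edgeR 4.0.16 in R 4.3.3: filterByExpr (minimum count 10, 541 of 1182 features kept), TMM factors from 0.8265 to 1.0917, robust quasi-likelihood test, Benjamini-Hochberg adjustment over 541 miRNAs, threshold 0.05. Standard errors and 95% intervals come from that fit, and log2 CPM used a prior count of 1. Some tested rows hold the same or nearly the same counts as another row. Shares over all tested miRNAs therefore count some reads more than once. Arm shares used hairpins with at least 100 reads, adding the other arms of duplicated hairpins, with exact permutation tests in SciPy 1.17.1. Background shares over 242 hairpins used 5p and 3p rows of the same name. Reads carry no molecular identifiers, so Wilson intervals and the limit of 3 reads cover counting error alone. The fit was tested on simulated data. It recovered 52 of 100 changes of 1 log2 unit and 90 of 93 changes of 2 log2 units, with 6 false calls. A 2-fold change can thus be missed. The simulation tested 524 miRNAs, changed a large part of them, and gave both genotypes the same spread. In the real libraries the spread was wider in KO and no miRNA was called, so these rates need not hold for them. Alternatives were DESeq2 1.42.0, limma 3.58.1 (voom, and log2(TPM + 1)), other scalings, no filter, and each library left out. Leaving KO replicate 3 out of the marker lists and other arms was chosen after seeing the data.

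The text names the 9 listed miRNAs, their other arms, seed relatives and nearest profiles, up to 3 each, and sums of the marker lists. Also named, after their values were seen, are miR-135b-5p and the list members called without KO replicate 3, miR-344d-3p and miR-146a-5p. The members and lists were chosen with earlier results of these data known.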

Additional observations from a re-analysis of the deposited data

How the results depend on the processing

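No paired analysis was possible because the labels carry no replicate numbers shared between genotypes. No listed miRNA was called under any of the 13 alternatives. Over all miRNAs the count of calls was 0 under each of them except without KO replicate 3, where it was 18 of 560, so it ranged from 0 to 18 over left-out libraries. Of 117 comparisons of a listed fold change with its alternative, 110 kept their direction. The sign of miR-138-5p changed with limma-voom (-0.0498) and with limma on log2(TPM + 1) (-0.0668). It also changed without WT replicate 1 (-0.0267) and without KO replicate 3. Over left-out libraries its log2 fold change ranged from -0.39 to 0.24, that of miR-137-3p from -0.10 to 0.35, that of miR-149-5p from -0.0511 to 0.42 and that of miR-326-3p from -0.20 to 0.57, each lowest without KO replicate 3. The estimate for miR-135a-5p ranged from 0.26 to 1.69. Without KO replicate 2 those of miR-218-5p and miR-488-3p were lowest, with ranges of 0.0042 to 0.40 and 0.005 to 0.38. The cause was not tested. Hairpins whose arm shares did not overlap between genotypes numbered 1 to 3 over left-out libraries, with smaller groups, and 2 with the log2 ratio of the arms. The difference in share ranged from -1.12 to 5.99 percentage points for miR-153-3p, from -0.0112 to 3.50 for miR-135a-5p, both negative without KO replicate 3, and from -0.0003 to 0.0032 for miR-218-5p. Depth limits the other arms of miR-149, miR-218 and miR-326 most, with 35, 51 and 3 reads in all.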
